A study of Homo sapiens with 18 samples.

Results

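The ZNF genes described here are 30 human zinc finger genes whose transcripts were measured by RNA sequencing in 2 acute myeloid leukaemia cell lines before and after the caspase-2 gene, CASP2, had been targeted. OCI-AML2 carries normal NPM1 (NPM1 wild type) and OCI-AML3 carries the mutated form that moves the protein to the cytoplasm (NPM1c+). The groups were untreated parental cells of each line with intact caspase-2, and 2 CRISPR/Cas9 clones per line carrying the label of caspase-2 knockouts. Each of these 6 groups had 3 libraries. Each knockout group is 1 clone, so a difference from parental cells can belong to that clone, and a change is counted only where both clones of a line pass in the same direction (adjusted p under 0.05 by limma, a linear model fitted across all tested sets). Nothing in the labels says that the 3 libraries of a group came from separate cultures, so p-values measure the spread between these libraries, which may be technical. The comparisons ask what the loss of caspase-2 does to transcripts in each line and whether the answer differs between the lines. Each state of NPM1 is carried by 1 line only. A difference between the lines therefore cannot be told apart as one of NPM1 or of anything else in which they differ.

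The deposited table repeats many sets of 18 values and prints some of them under more than 1 symbol, so a symbol was accepted only where the table itself settles it. Of 6999 lines, 218 carried a symbol made of ZNF and a digit, and they held 202 distinct sets of values. Of these, 45 belonged to another symbol and 123 were not settled, 115 of them because they stand on a single line. A set was kept where it repeated under the same symbol, or where a twin under another symbol read its 3 OCI-AML3 clone 1 values in rotated order. This left 34 genes, and 30 of them had at least 1 TPM (a unit of transcript abundance scaled for transcript length and library size) in at least 3 libraries, out of 4413 sets of values tested and 5069 in all. Repetition alone settled 12 of them, the rotated twin alone 17, and both settled ZNF570. The 4 genes under the minimum were ZNF853, with a third-highest value of 0.96 TPM, ZNF528 with 0.69 TPM, ZNF287 with 0.56 TPM and ZNF732 with 0.18 TPM. The members just inside it were ZNF879, with a third-highest value of 1.19 TPM, ZNF568 with 1.22 TPM and ZNF536 with 1.64 TPM. ZNF239, ZNF469 and ZNF90 passed through 1 group only, the OCI-AML3 parental cells, and ZNF726 passed only through the 2 OCI-AML3 clones. Differences of these groups from the others were built into the presence of those 4 genes, so they are given below as a description, with no p-value. ZNF462 passed only through the clone groups of both lines, where it was higher than in parental cells, and is given in the same way. So is ZNF570, which passed only through the OCI-AML2 clones and the OCI-AML3 parental cells, its higher groups in each line.

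C2H2 zinc finger proteins are the largest family of DNA-binding proteins in the human genome. Each finger folds around a zinc ion held by a pair of cysteines and a pair of histidines, and fingers in tandem read a stretch of DNA. Many members also carry a KRAB domain, which recruits TRIM28 and, through it, the histone methyltransferase SETDB1, and which is best known for silencing transposable elements. KRAB zinc finger genes multiplied by local duplication, so many lie side by side on chromosome 19 and resemble each other closely.

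The table is a selection, which sets how its counts can be read. In 96.6% of the sets, and in 30 of the 30 members, the log2 ratio of mean TPM was at least 0.95 between the parental lines (30 members), between parental cells and each OCI-AML3 clone (18), or between OCI-AML2 parental cells and clone 1 (13). Values of the distinct sets summed to between 170140 and 199403 TPM per library, and the read depth is unknown because TPM does not keep it. Libraries of a group correlated at 0.993 to 0.997 over the tested sets, and no pair was identical. Among genes with a settled symbol, 4 of the 20 myeloid markers listed were present (ANPEP, CD14, CTSG and PRTN3, summing to between 1287 and 13639 TPM per library), and PAX5, the only settled B cell marker of 5 listed, lay between 0.08 and 4.2 TPM. No T cell or erythroid marker had a settled symbol, and the single settled marker of megakaryocytes and that of epithelial cells and fibroblasts stayed at or under 2.98 and 3.91 TPM.

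CASP2, the targeted gene, stood on 1 line of the table, which the rules do not settle. In OCI-AML2 it read 35.32, 37.29 and 35.57 TPM in the parental libraries, 3.93, 3.58 and 3 TPM in clone 1 and 5.03, 3.27 and 5.06 TPM in clone 2. Its level in these clones was 9.72% and 12.3% of the parental mean (limma adjusted p = 1.7e-13 and 4.2e-13). In OCI-AML3 it read 30.11, 28.12 and 28 TPM in the parental libraries, 26.34, 27.05 and 27.83 TPM in clone 1 and 31.09, 35.39 and 29.82 TPM in clone 2. That was 94.2% and 112% of the parental mean (adjusted p = 0.537 and 0.240), so this line, if it is that of CASP2, goes with the label of the OCI-AML2 clones and does not bear on that of the OCI-AML3 clones.

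Most members were expressed at low levels. Their mean TPM over the 18 libraries had a median of 1.93, against 7.54 for all tested sets, and ran from 0.508 for ZNF469 to 44.4 for ZNF282. The highest 3 were ZNF282, a protein that binds a repressive element of a retroviral promoter, ZNF117 with 30.0 TPM and ZNF746 with 23.1 TPM. ZNF746, also called PARIS, is a substrate of parkin that represses PPARGC1A. The number of members at 1 TPM or more in all 3 libraries was 17 in OCI-AML2 parental cells, 22 in its clone 1 and 23 in its clone 2. In OCI-AML3 it was 19 in parental cells and 20 in each clone. Conversely, 6 members were listed at 0 in all 3 OCI-AML2 parental libraries, 3 in each OCI-AML2 clone, 2 in OCI-AML3 parental cells and in its clone 1, and 0 in its clone 2. The members summed to between 320 and 345 TPM in OCI-AML3 parental libraries and to between 234 and 258 TPM in those of its clones. The sums were 133 to 138 TPM in OCI-AML2 parental libraries, 99.4 to 108 TPM in its clone 1 and 121 to 122 TPM in its clone 2. In both lines the parental libraries had the higher sums, with no overlap with either clone, and these sums rest mostly on the few members with high levels.

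**Figure D1:**
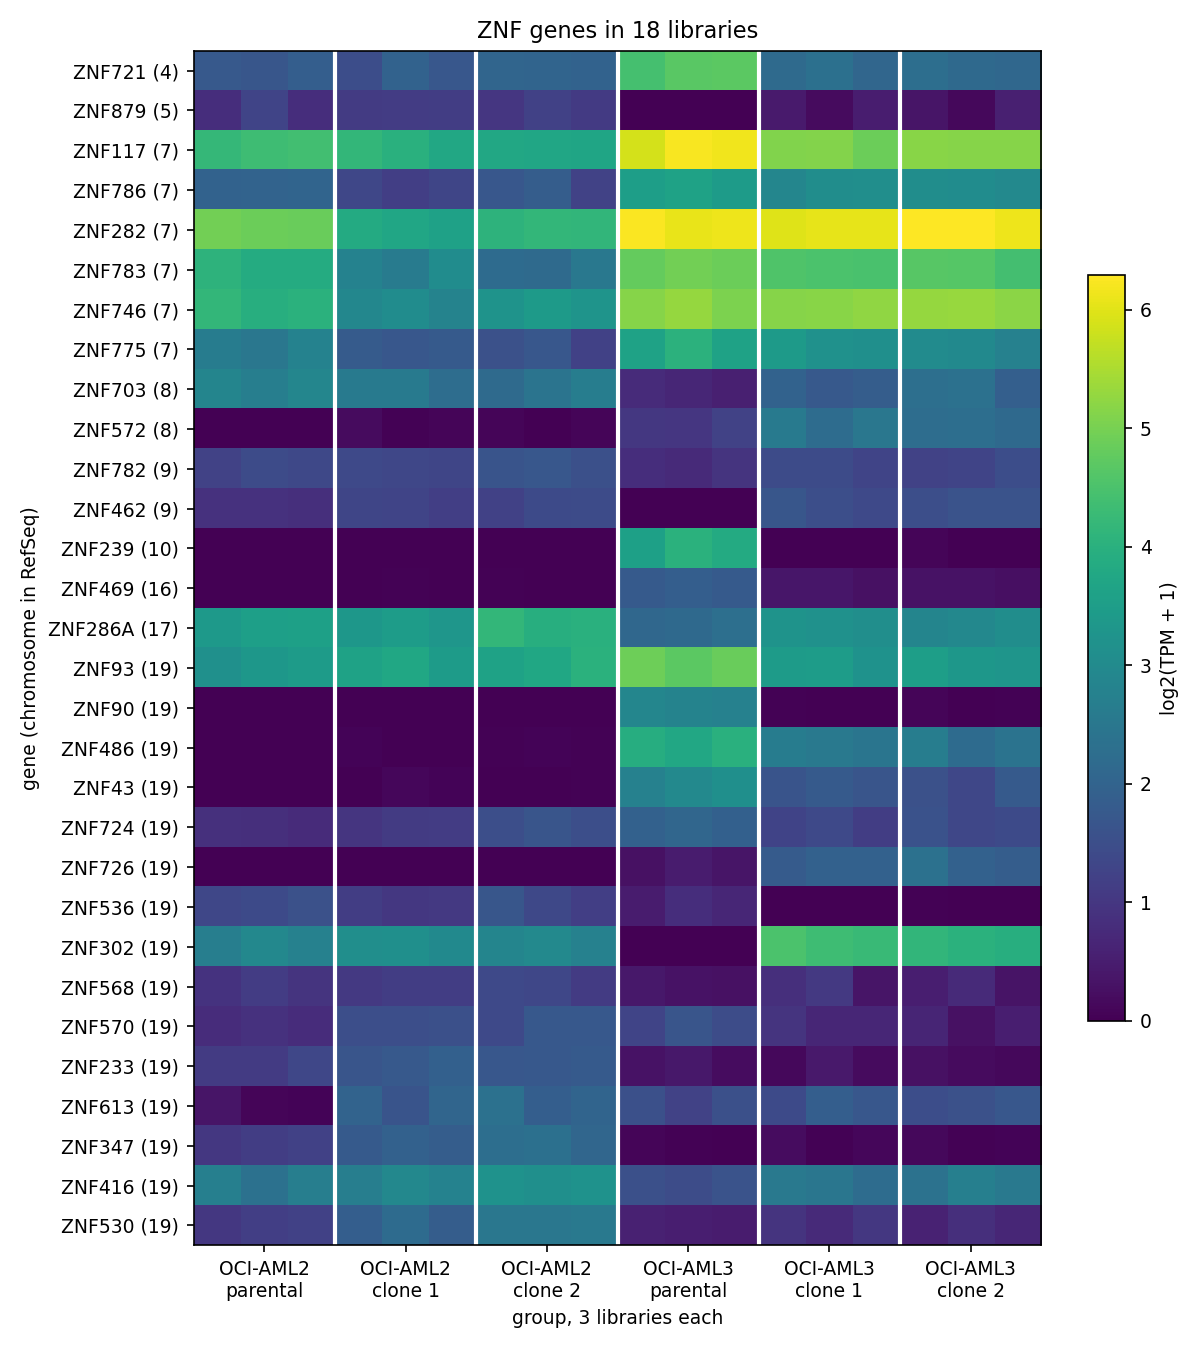
Level of the 30 ZNF genes (rows, by RefSeq chromosome, given in brackets, and gene order) in 18 libraries (columns, 3 per group), as log2(TPM + 1). Most rows change colour at the border between the lines, several genes at or near 0 in OCI-AML2 are bright in OCI-AML3 parental cells only or mainly, and ZNF302 is dark in the 3 OCI-AML3 parental libraries alone.

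In OCI-AML3, 9 members were higher in both clones than in parental cells (30.0%, against 28.7% of all tested sets) and 14 were lower (46.7%, against 38.3%), and 7 were not called. These counts include ZNF726 and ZNF462 among the rises and ZNF239, ZNF469, ZNF90 and ZNF570 among the falls. The TPM minimum fixed or favoured those calls, so nothing is read from the shares. The median change was -0.06 both among members and among all sets. Changes are given on the log2(TPM + 1) scale, which understates those of genes with low values, and percentages and folds are ratios of mean TPM. The largest changes ran in both directions. ZNF302 went from listed at 0 to over 14 TPM, while ZNF239 and ZNF90 went from over 5 TPM to 0 or nearly so. In bulk RNA, fewer cells expressing a gene and less RNA per cell cannot be told apart, so a group value may be the mean of unlike cells.

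ZNF302, a KRAB zinc finger gene on chromosome 19, was listed at 0, 0 and 0 TPM in OCI-AML3 parental cells. Clone 1 held 21.93, 19.08 and 18.07 TPM, and clone 2 held 16.55, 15.16 and 14.31 TPM. All 9 OCI-AML2 libraries held between 5.47 and 7.71 TPM. The OCI-AML3 parental group was thus the single group listed at 0, and both clones of that line lay above every OCI-AML2 library. Its rise of 4.20 ± 0.08 (SE) was the largest of any member, with an adjusted p of at most 4.1e-17 in either clone.

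ZNF239, the human counterpart of mouse Mok2, showed the opposite arrangement. It read 10.87, 15.07 and 13.44 TPM in OCI-AML3 parental cells, 0, 0 and 0 TPM in clone 1 and 0.07, 0 and 0 TPM in clone 2, and it was listed at 0 in all 9 OCI-AML2 libraries. Outside the OCI-AML3 parental group, 1 library of 15 listed a value above 0. The difference of the OCI-AML3 clones from parental cells was -3.79 ± 0.07 (SE). ZNF469, which encodes a very large protein with few fingers and is mutated in brittle cornea syndrome, had a like arrangement. It read 2.43, 2.69 and 2.46 TPM in parental cells, 0.3, 0.31 and 0.22 TPM in clone 1 and 0.24, 0.24 and 0.19 TPM in clone 2, with no OCI-AML2 library above 0.02 TPM. That left 10.9% and 8.84% of the parental level (a difference of -1.50 ± 0.05, SE).

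Of the 15 members on chromosome 19 (gene positions from RefSeq on GRCh38.p14, where 250 of 517 ZNF genes lie on that chromosome), 6 belong to one cluster of KRAB genes on its short arm. In gene order these are ZNF93, ZNF90, ZNF486, ZNF43, ZNF724 and ZNF726, with 1, 0, 13, 10 and 4 coding genes between neighbours. ZNF93 is known to bind and silence LINE-1 elements. Of the 6, 5 were lower in both OCI-AML3 clones and ZNF726 was higher, the directions of ZNF90 and ZNF726 being fixed by the TPM minimum. Among all tested sets 38.3% were lower and 28.7% higher, and the share among other genes of the cluster was not computed. The promoters of the 6 are shown because these neighbours are near copies of one another at the start site. Each line gives the 250 bases before the transcription start, 5′ to 3′ on the gene's strand, from RefSeq on GRCh38.p14, with every CCAAT box (letters CCAAT, or ATTGG on the other strand) in capitals. The regions are chr19:19900696-19900945 (+ strand) for ZNF93, chr19:20077750-20077999 (+) for ZNF90, chr19:20166964-20167213 (+) for ZNF486, chr19:21836183-21836432 (- strand) for ZNF43, chr19:23250395-23250644 (-) for ZNF724 and chr19:23914636-23914885 (+) for ZNF726.
ZNF93: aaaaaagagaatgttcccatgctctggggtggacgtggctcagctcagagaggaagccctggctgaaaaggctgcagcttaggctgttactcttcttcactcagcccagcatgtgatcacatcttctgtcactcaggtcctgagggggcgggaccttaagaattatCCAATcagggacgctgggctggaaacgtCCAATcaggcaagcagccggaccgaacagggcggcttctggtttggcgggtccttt
ZNF90: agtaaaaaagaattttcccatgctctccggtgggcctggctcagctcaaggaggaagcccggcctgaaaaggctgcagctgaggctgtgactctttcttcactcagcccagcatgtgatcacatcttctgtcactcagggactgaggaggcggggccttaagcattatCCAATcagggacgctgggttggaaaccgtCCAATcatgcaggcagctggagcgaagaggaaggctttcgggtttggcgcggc
ZNF486: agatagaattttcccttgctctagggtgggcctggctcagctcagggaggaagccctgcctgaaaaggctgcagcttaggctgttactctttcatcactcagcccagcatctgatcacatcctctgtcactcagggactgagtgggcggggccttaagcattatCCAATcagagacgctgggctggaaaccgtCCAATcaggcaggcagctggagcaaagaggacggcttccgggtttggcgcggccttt
ZNF43: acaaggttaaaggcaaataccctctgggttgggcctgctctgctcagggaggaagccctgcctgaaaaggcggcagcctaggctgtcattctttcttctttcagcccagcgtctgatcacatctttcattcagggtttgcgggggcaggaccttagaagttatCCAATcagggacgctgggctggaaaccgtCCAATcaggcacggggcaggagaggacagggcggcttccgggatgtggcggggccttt
ZNF724: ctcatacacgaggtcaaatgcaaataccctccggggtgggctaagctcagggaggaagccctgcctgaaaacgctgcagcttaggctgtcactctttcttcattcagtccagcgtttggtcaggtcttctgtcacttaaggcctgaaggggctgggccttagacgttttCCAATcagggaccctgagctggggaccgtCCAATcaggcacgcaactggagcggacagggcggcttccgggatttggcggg
ZNF726: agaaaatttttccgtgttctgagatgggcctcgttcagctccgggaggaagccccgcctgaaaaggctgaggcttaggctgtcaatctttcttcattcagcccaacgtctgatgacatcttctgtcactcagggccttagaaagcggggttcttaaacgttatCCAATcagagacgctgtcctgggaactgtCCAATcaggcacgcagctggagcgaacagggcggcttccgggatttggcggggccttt
The 15 pairs among these 6 promoters were 77.6% to 90.8% identical when aligned (median 81.2%). The 238 other pairs among the 23 members with a promoter in the table were 50.8% to 66.0% identical (median 58.8%). All 6 held at least 2 CCAAT boxes on either strand, a feature of 1 of the 17 other member promoters (ZNF775) and of 10.0% of 27305 promoters of that length. ZNF726, the gene of the run that was higher in the clones, carries such a pair of boxes like the 5 that were lower. A match is a description of letters and not a binding site, and the files hold no measurement at these promoters.

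ZNF90 read 6.39, 6.06 and 5.81 TPM in OCI-AML3 parental cells, 0.03, 0 and 0 TPM in clone 1 and 0.06, 0 and 0.03 TPM in clone 2. All 9 OCI-AML2 libraries were listed at 0. Only the OCI-AML3 parental cells thus held this transcript above 0.1 TPM, and the difference of the clones was -2.80 ± 0.04 (SE). ZNF486 read 14.18, 12.59 and 14.92 TPM in parental cells, 5.25, 4.84 and 4.46 TPM in clone 1 and 5.37, 3.62 and 4.25 TPM in clone 2. Unlike ZNF90 it kept a clear level in the clones, at 34.9% and 31.8% of parental (change of -1.41 ± 0.08, SE, adjusted p of at most 5.7e-10), while no OCI-AML2 library exceeded 0.05 TPM.

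ZNF43 read 5.81, 6.81 and 7.76 TPM in OCI-AML3 parental cells, 2.08, 2.42 and 2.14 TPM in clone 1 and 1.93, 1.51 and 2.45 TPM in clone 2. It too was nearly missing from OCI-AML2, with at most 0.08 TPM in any library, and it stood at 32.6% and 28.9% of parental in the OCI-AML3 clones (change of -1.34 ± 0.09, SE, adjusted p of at most 2.2e-09). ZNF93 read 28.62, 24.88 and 27.9 TPM in parental cells, 10.01, 10.13 and 8.24 TPM in clone 1 and 10.53, 9.11 and 8.71 TPM in clone 2. Both clones thus sat at 34.9% and 34.8% of parental (change of -1.43 ± 0.10, SE, adjusted p of at most 2.8e-09), with means of 9.46 and 9.45 TPM. The OCI-AML2 parental libraries held 7.95, 8.96 and 9.91 TPM, and 3 of the 6 OCI-AML3 clone libraries lay above them. ZNF724 read 2.89, 3.18 and 2.82 TPM in parental cells, 1.42, 1.6 and 1.2 TPM in clone 1 and 2, 1.54 and 1.67 TPM in clone 2. It fell by 0.63 ± 0.07 (SE) on the log2(TPM + 1) scale (adjusted p of at most 1.2e-05), the smallest fall in the run.

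ZNF726 was the exception of the run. It read 0.22, 0.39 and 0.28 TPM in OCI-AML3 parental cells, 2.51, 2.89 and 2.86 TPM in clone 1 and 4.09, 2.84 and 2.64 TPM in clone 2, and was listed at 0 in all 9 OCI-AML2 libraries. Clone and parental libraries did not overlap, and the clone means were 9.28 and 10.8 times the parental mean (a difference of 1.61 ± 0.08, SE). Genes of this cluster share long stretches of finger sequence, and the sources used here do not give how reads matching several of them were assigned, which leaves the levels of single genes in it uncertain.

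**Figure D2:**
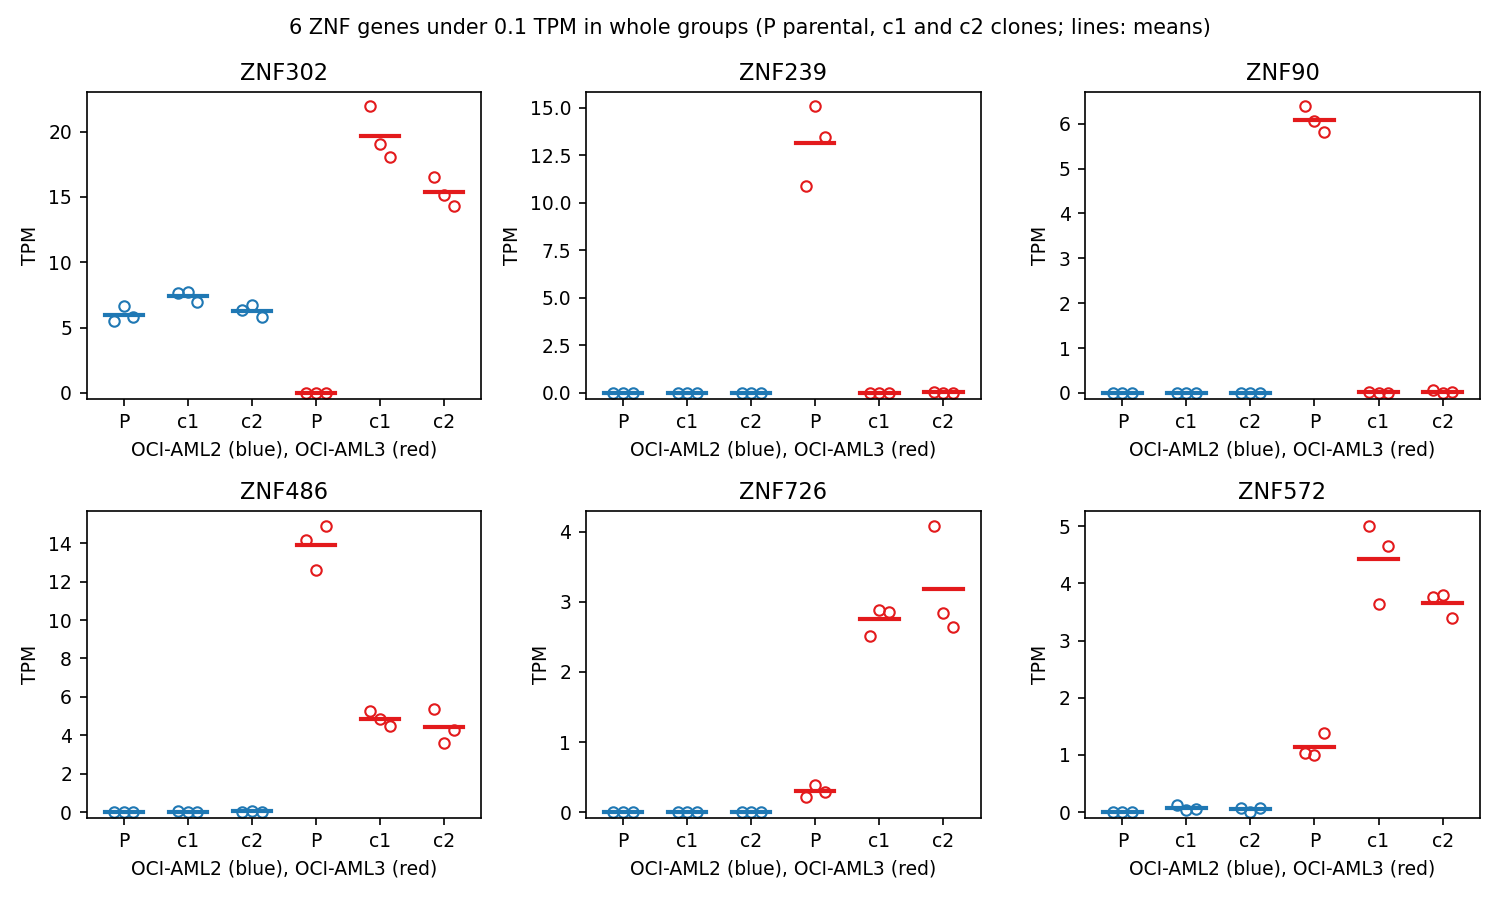
TPM of 6 of the ZNF genes that were under 0.1 TPM in every library of at least 1 group and at 2 TPM or more in every library of another (points are libraries, lines are group means, linear axes from 0, P for parental, c1 and c2 for the clones). ZNF347, ZNF43 and ZNF469 met the same limits and are not shown. ZNF302 is listed at 0 in OCI-AML3 parental cells and lies above 14 TPM in both of its clones, while ZNF239 and ZNF90 are present in the OCI-AML3 parental cells and at or near 0 elsewhere.

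Elsewhere in the genome, ZNF721 on chromosome 4 read 20.47, 24.58 and 24.9 TPM in OCI-AML3 parental cells, 3.5, 3.97 and 3.18 TPM in clone 1 and 3.84, 3.41 and 3.31 TPM in clone 2. Its fall to 15.2% and 15.1% of parental (-2.42 ± 0.10, SE, adjusted p of at most 1.4e-12) brought the clones close to the OCI-AML2 libraries, which ran from 1.81 to 3.15 TPM. ZNF117, whose locus on chromosome 7 also gives rise to transcripts of the endogenous retroviral gene ERV3-1, read 57.58, 74.48 and 70.69 TPM in parental cells, 33.2, 33.76 and 28.38 TPM in clone 1 and 35.2, 34.35 and 34.44 TPM in clone 2. It fell to 47.0% and 51.3% of parental (-0.998 ± 0.09, SE, adjusted p of at most 1.9e-07), with no overlap. Reads of the shared locus could be counted for either gene. Smaller falls were those of ZNF536, a repressor studied in neuronal differentiation, ZNF570, ZNF775, ZNF786 and ZNF783. ZNF536 was listed at 0.4, 0.77 and 0.6 TPM in parental cells and at 0 in 5 of 6 clone libraries, with 0.02 TPM in the other. ZNF783 was lower by 0.34 ± 0.10 (SE) and lost its call without clone 2 replicate 3 (-0.30, adjusted p = 0.0964), without parental replicate 2 (-0.30, adjusted p = 0.0653), or after scaling by medians of ratios (-0.18, adjusted p = 0.304).

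Besides ZNF302 and ZNF726, 7 members were higher in both OCI-AML3 clones. ZNF462, a large zinc finger protein linked to chromatin in embryonic stem cells, read 0, 0 and 0.01 TPM in parental cells, 2.21, 1.87 and 1.61 TPM in clone 1 and 1.87, 2.07 and 2.07 TPM in clone 2 (a difference of 1.55 ± 0.07, SE). ZNF703, a transcriptional co-repressor amplified in luminal breast cancer, read 0.7, 0.61 and 0.46 TPM in parental cells, 2.93, 2.4 and 2.63 TPM in clone 1 and 3.9, 4.05 and 2.75 TPM in clone 2. Its mean rose 4.50-fold and 6.05-fold (1.36 ± 0.12, SE, adjusted p of at most 2.1e-07) without reaching the OCI-AML2 parental libraries, at 6.32, 5.42 and 6.38 TPM.

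ZNF572, like ZNF703 on chromosome 8, read 1.04, 1 and 1.38 TPM in parental cells, 5.01, 3.63 and 4.65 TPM in clone 1 and 3.76, 3.8 and 3.4 TPM in clone 2. It rose 3.89-fold and 3.20-fold (1.23 ± 0.08, SE, adjusted p of at most 2.7e-09) and was not above 0.13 TPM in any OCI-AML2 library. ZNF416 on chromosome 19 read 1.91, 1.74 and 2.04 TPM in parental cells, 4.87, 4.51 and 3.68 TPM in clone 1 and 4.14, 5.56 and 4.79 TPM in clone 2, a rise of 2.30-fold and 2.55-fold (0.94 ± 0.10, SE, adjusted p of at most 1.6e-06). ZNF286A on chromosome 17, which has a near-identical copy, ZNF286B, that could share its reads, read 3.28, 3.41 and 3.93 TPM in parental cells, 8.39, 8.11 and 7.63 TPM in clone 1 and 6.27, 6.69 and 7.5 TPM in clone 2 (0.89 ± 0.07, SE, adjusted p of at most 1.9e-07). In all 3 genes the clone and parental libraries were apart. ZNF782 rose by less, from 0.76, 0.69 and 0.92 TPM to 1.71, 1.73 and 1.44 TPM in clone 1 and 1.38, 1.45 and 1.82 TPM in clone 2 (0.53 ± 0.07, SE, adjusted p of at most 2.8e-05). ZNF879, listed at 0 in the 3 parental libraries and between 0.1 and 0.46 TPM in the clones, rose by 0.36 on the log2(TPM + 1) scale, a call that was lost without clone 2 replicate 3 (0.31, adjusted p = 0.0910).

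In OCI-AML2, 8 members were higher in both clones than in parental cells (26.7%, against 23.8% of all tested sets) and 7 were lower (23.3%, against 14.6%), and 15 were not called. The rises include those of ZNF462 and ZNF570, which the TPM minimum favoured. The changes ran from -1.37 to 1.82 on the log2(TPM + 1) scale. Of the 15 members on chromosome 19, 7 were higher and 0 lower, with the unstable calls of ZNF724 and ZNF93 (below) among the 7. The share among other genes of that chromosome was not computed. Of the 6 on chromosome 7, 0 were higher and 6 lower.

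ZNF613 had the largest rise. It read 0.27, 0.07 and 0.05 TPM in OCI-AML2 parental cells, 3.03, 2.11 and 3.16 TPM in clone 1 and 4.1, 2.68 and 3.08 TPM in clone 2. All clone libraries lay above the parental ones (1.82 ± 0.13, SE, adjusted p of at most 1.1e-08). The OCI-AML3 libraries ran from 1.38 to 2.66 TPM, with parental and clone values overlapping. ZNF530 read 1.01, 1.24 and 1.33 TPM in parental cells, 2.66, 3.59 and 2.6 TPM in clone 1 and 4.66, 4.67 and 4.82 TPM in clone 2, a rise of 2.47-fold and 3.95-fold (1.11 ± 0.09, SE, adjusted p of at most 1.1e-06).

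ZNF347 read 1.04, 1.21 and 1.33 TPM in parental cells, 2.41, 2.85 and 2.64 TPM in clone 1 and 3.8, 3.97 and 3.2 TPM in clone 2 (0.91 ± 0.07, SE, adjusted p of at most 2.9e-07). Every OCI-AML3 library held at most 0.16 TPM of it. ZNF570 read 0.73, 0.87 and 0.73 TPM in OCI-AML2 parental cells, 1.86, 1.85 and 1.88 TPM in clone 1 and 1.62, 2.31 and 2.3 TPM in clone 2, so it rose 2.40-fold and 2.67-fold (a difference of 0.74 ± 0.10, SE). In OCI-AML3 the same gene fell, from 1.45, 2.15 and 1.75 TPM to 0.94, 0.6 and 0.61 TPM in clone 1 and 0.57, 0.22 and 0.43 TPM in clone 2. It passed the TPM minimum only through the OCI-AML2 clones and OCI-AML3 parental cells, so both changes are a description. ZNF233 read 1.13, 1.14 and 1.52 TPM in OCI-AML2 parental cells, 2.15, 2.36 and 2.78 TPM in clone 1 and 2.26, 2.3 and 2.44 TPM in clone 2 (0.58 ± 0.08, SE, adjusted p of at most 3.9e-05). In ZNF530, ZNF347, ZNF570 and ZNF233 no OCI-AML2 clone library overlapped the parental ones.

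ZNF462 rose in this line too, from 0.86, 0.86 and 0.8 TPM to 1.5, 1.43 and 1.23 TPM in clone 1 and 1.32, 1.66 and 1.7 TPM in clone 2 (a difference of 0.42 ± 0.07, SE). It was the single member higher in both clones of both lines, a pattern of 6.4% of all tested sets. The clones were also the only groups through which it passed the TPM minimum, so this shared rise is a description. ZNF724 and ZNF93 of the chromosome 19 run, which fell in OCI-AML3, rose by 0.49 ± 0.07 and 0.40 ± 0.10 (SE) in OCI-AML2, with adjusted p of at most 0.0202 and 0.0332. ZNF93 read 11.4, 12.53 and 9.88 TPM in clone 1 and 11.33, 12.42 and 15.19 TPM in clone 2, so 1 clone 1 library lay within the parental range. These calls rested on single libraries. That of ZNF724 was lost without clone 1 replicate 2 (0.48, adjusted p = 0.0612) or 3 (0.47, adjusted p = 0.0671), without parental replicate 3 (0.46, adjusted p = 0.0723), or by medians of ratios (0.44, adjusted p = 0.0824). That of ZNF93 was lost without clone 1 replicate 1 (0.39, adjusted p = 0.0772) or 2 (0.36, adjusted p = 0.147), without parental replicate 1 (0.32, adjusted p = 0.146) or 2 (0.40, adjusted p = 0.0650), and by medians of ratios (0.33, adjusted p = 0.141). A fit of the compared groups alone also lost it (0.40, adjusted p = 0.0872).

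The falls in OCI-AML2 were led by 5 genes on the long arm of chromosome 7, ZNF786, ZNF282, ZNF783, ZNF746 and ZNF775, which follow one another with 2, 1, 1 and 8 coding genes between neighbours. They lie 34 to 50 coding genes beyond CASP2 on the same chromosome arm. ZNF783 read 15.86, 13.58 and 13.59 TPM in OCI-AML2 parental cells, 5.92, 5.15 and 7.34 TPM in clone 1 and 3.62, 3.5 and 4.77 TPM in clone 2, or 42.8% and 27.6% of parental (-1.37 ± 0.10, SE, adjusted p of at most 1.2e-07). ZNF282 read 29.71, 28.26 and 28.05 TPM in parental cells, 13.44, 12.1 and 11.18 TPM in clone 1 and 15.73, 17 and 16.61 TPM in clone 2, or 42.7% and 57.4% (-0.97 ± 0.06, SE, adjusted p of at most 2.3e-08). The 3 groups of ZNF282 did not overlap, and clone 1 was the lowest.

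ZNF746 read 16.96, 14.35 and 15.15 TPM in OCI-AML2 parental cells, 6.58, 7.29 and 6.03 TPM in clone 1 and 8.31, 9.77 and 8.62 TPM in clone 2, or 42.8% and 57.5% (-0.92 ± 0.07, SE, adjusted p of at most 5.1e-07). Its percentages were thus close to those of ZNF282. ZNF775 read 5.28, 4.62 and 5.91 TPM in parental cells, 2.51, 2.27 and 2.45 TPM in clone 1 and 1.93, 2.28 and 1.33 TPM in clone 2, or 45.7% and 35.0% (-1.01 ± 0.12, SE, adjusted p of at most 2.3e-05). ZNF786 read 2.94, 3.03 and 3.1 TPM in parental cells, 1.55, 1.25 and 1.47 TPM in clone 1 and 2.25, 2.62 and 1.37 TPM in clone 2, or 47.1% and 68.8% (-0.57 ± 0.10, SE, adjusted p of at most 0.00587). In clone 1 all 5 genes thus lay between 42.7% and 47.1% of parental, while in clone 2 they ranged from 27.6% to 68.8%.

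**Figure D3:**
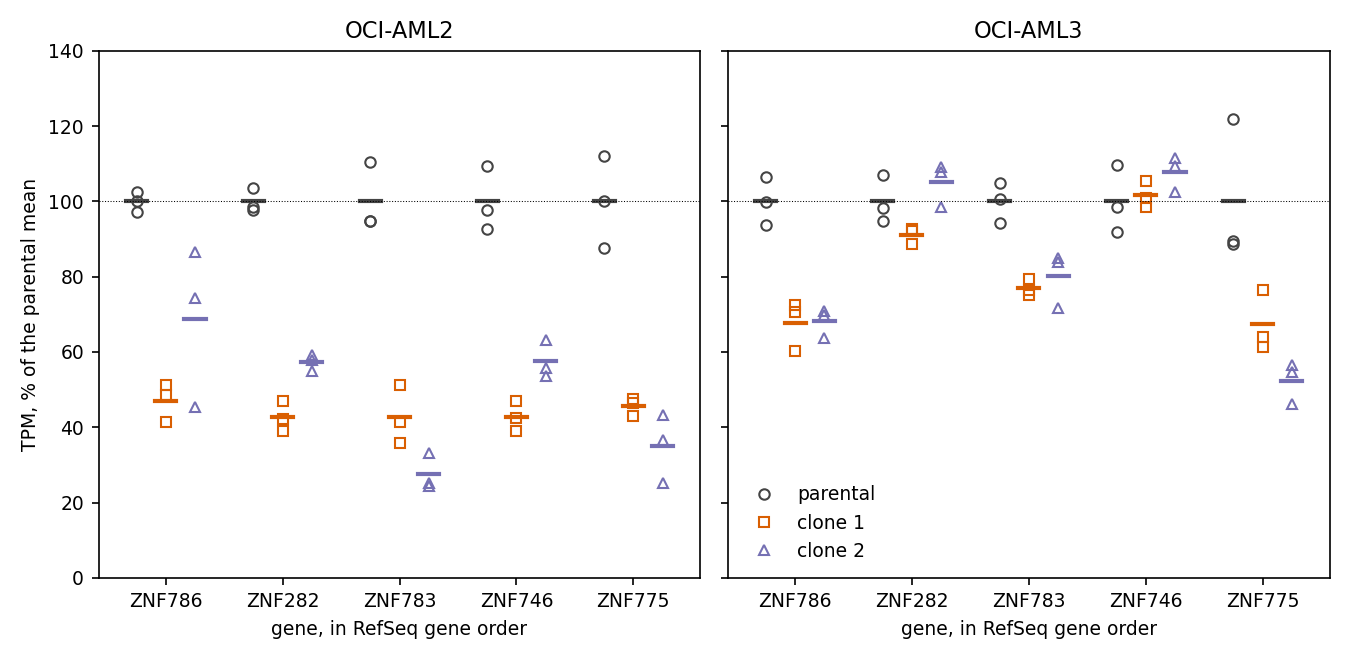
TPM of the 5 chromosome 7 members as percent of the mean of their own parental group, in OCI-AML2 (left) and OCI-AML3 (right); points are libraries, thick lines group means, and the dotted line marks 100%. In OCI-AML2 clone 1 the 5 means lie between 42.7% and 47.1%, while in OCI-AML3 ZNF282 and ZNF746 stay near 100%.

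The RefSeq annotation counts 51 protein-coding genes from CASP2 to ZNF775, and 8 tested sets with a settled symbol fall there: the 5 members, FAM131B, TCAF1 and ATP6V0E2. In the OCI-AML2 clones FAM131B fell by 1.02 and TCAF1 rose by 0.43 on the log2(TPM + 1) scale, and ATP6V0E2 was not called, at -1.20 in clone 1 and -0.21 in clone 2. Across the 88 other settled and tested genes of chromosome 7, 18 were lower and 41 higher in OCI-AML2, with a median change of 0.29. In OCI-AML3 the 5 genes did not move as a block. ZNF282 read 75.49, 67 and 69.41 TPM in parental cells, 62.71, 65.36 and 65.01 TPM in clone 1 and 76.12, 77.16 and 69.56 TPM in clone 2, with a change of -0.03 that did not pass. ZNF746 likewise did not pass, at 102% and 108% of parental. ZNF775 fell to 67.3% and 52.4% and ZNF786 to 67.7% and 68.2% of parental.

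Outside the run, ZNF117 and ZNF703 were the other members lower in OCI-AML2. ZNF117 read 17.2, 19.03 and 19.86 TPM in parental cells, 17.07, 14.97 and 12.72 TPM in clone 1 and 12.58, 12.18 and 11.96 TPM in clone 2 (-0.44 ± 0.09, SE, adjusted p of at most 0.0148). The lowest parental and the highest clone 1 library were neighbours, at 17.2 and 17.07 TPM, and the call was lost without clone 1 replicate 3 (-0.39, adjusted p = 0.0962) or parental replicate 3 (-0.40, adjusted p = 0.0619). ZNF703 read 6.32, 5.42 and 6.38 TPM in parental cells, 4.98, 5.04 and 3.78 TPM in clone 1 and 3.55, 4.32 and 5.3 TPM in clone 2 (-0.37 ± 0.12, SE, adjusted p of at most 0.0406). Its call was the least stable. It was lost without clone 1 replicate 3 (-0.31, adjusted p = 0.198), clone 2 replicate 1 (-0.31, adjusted p = 0.0916), parental replicate 1 (-0.34, adjusted p = 0.108) or parental replicate 3 (-0.33, adjusted p = 0.114). A pseudocount of 0.1 (-0.43, adjusted p = 0.0881) or a fit of the compared groups alone (-0.37, adjusted p = 0.0900) also lost it.

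**Figure D4:**
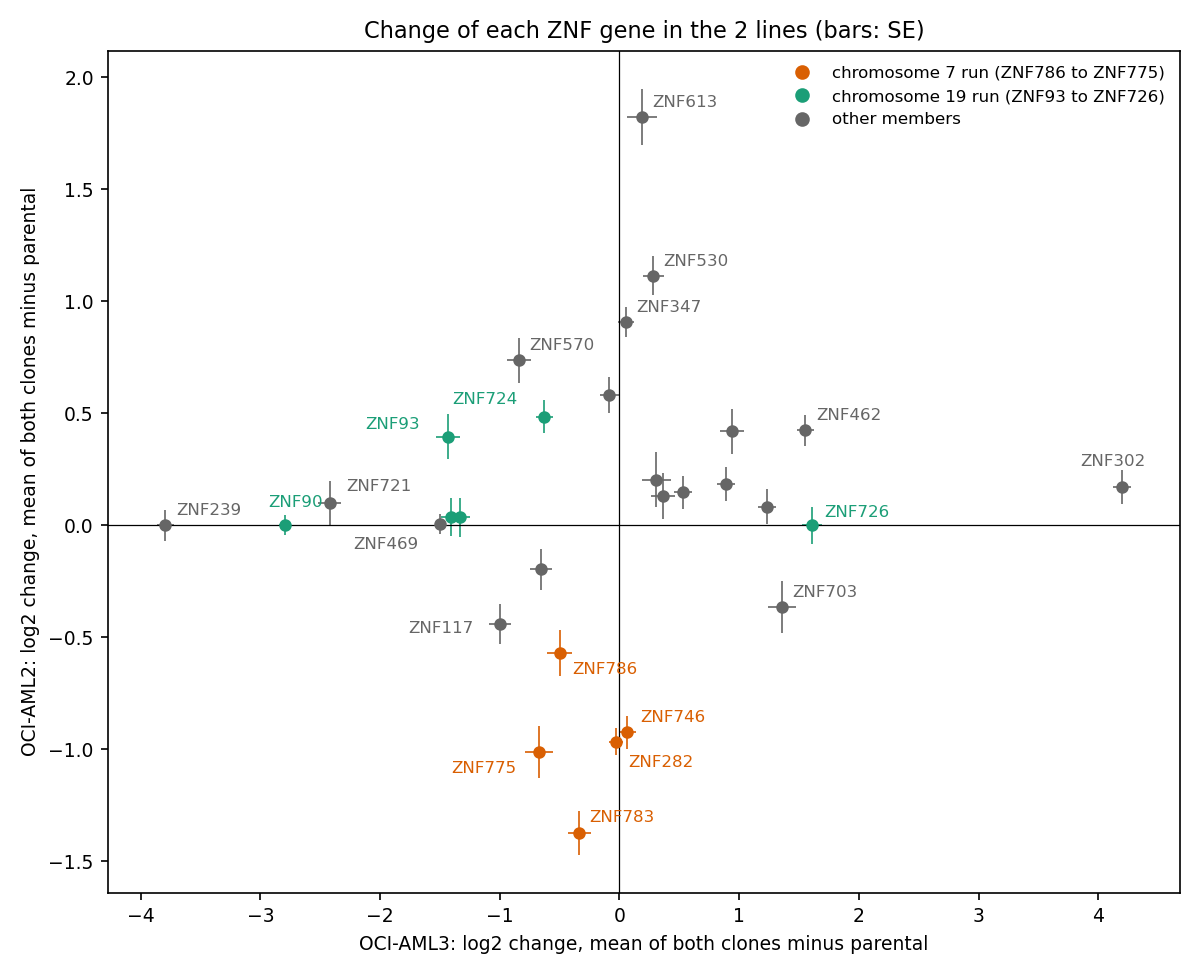
Change of each of the 30 ZNF genes in OCI-AML3 (x axis) against its change in OCI-AML2 (y axis), each as the mean log2(TPM + 1) of both clones minus that of the parental group, with standard errors as bars. The chromosome 7 genes (orange) lie low on the y axis, and of the chromosome 19 run (green) 5 genes lie left of 0 and ZNF726 at 1.61 right of it.

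The change from parental cells to clones was then compared between the lines, as OCI-AML3 minus OCI-AML2, and called only where each OCI-AML3 clone differed from each OCI-AML2 clone. It was higher in OCI-AML3 for 8 members (26.7%, against 24.2% of all tested sets), lower for 14 (46.7%, against 37.1%) and not called for 8. The largest positive differences were those of ZNF302 (4.03 ± 0.11, SE), ZNF703 (1.72 ± 0.16), ZNF726 (1.61 ± 0.12), ZNF572 (1.15 ± 0.11) and ZNF462 (1.13 ± 0.10). ZNF239 (-3.79 ± 0.10), ZNF90 (-2.80 ± 0.06), ZNF721 (-2.52 ± 0.14), ZNF93 (-1.83 ± 0.14) and ZNF613 (-1.63 ± 0.18) differed most the other way. ZNF239, ZNF90 and ZNF726 were listed at 0 throughout OCI-AML2 and passed the minimum through 1 side of the OCI-AML3 comparison, so their differences are a description. ZNF462 passed it only through the clones of both lines and ZNF572 only through OCI-AML3, and their differences are given in the same way. Among the remaining genes named here, the highest adjusted p of the 4 pairwise limma contrasts was 2.9e-06.

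Set side by side, 3 of 30 members were lower in OCI-AML3 clones and higher in OCI-AML2 clones (ZNF570, ZNF724 and ZNF93). Of all tested sets, 8.3% had that pattern. ZNF703 was higher in OCI-AML3 and lower in OCI-AML2, a pattern of 4.3% of all tested sets. The OCI-AML2 calls of ZNF724, ZNF93 and ZNF703 were unstable (above), and the TPM minimum favoured both calls of ZNF570. In 4 members both lines were lower (ZNF117, ZNF775, ZNF783 and ZNF786), a pattern of 5.1% of all tested sets. The OCI-AML2 call of ZNF117 and the OCI-AML3 call of ZNF783 were unstable (above). For ZNF775 and ZNF786 no difference between lines was called, with estimates of 0.34 ± 0.16 and 0.07 ± 0.15 (SE, adjusted p = 0.0661 and 0.666 for the mean difference), which does not show that they acted alike. ZNF783 fell further in OCI-AML2 (difference of 1.04 ± 0.14, SE, highest adjusted p of the 4 contrasts 3.3e-04). ZNF568, whose mouse counterpart represses a placental Igf2 transcript, was the single member changed in neither line, against 18.8% of all tested sets. It read between 0.88 and 1.62 TPM in OCI-AML2 and between 0.22 and 1.05 TPM in OCI-AML3. Whether the members' shares differ from those of all tested sets was not tested.

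The parental lines differed in all 30 members, a count that the selection of the table had set beforehand. Each of the 30 had a log2 ratio of at least 0.95 in size between these lines. In OCI-AML3, 18 members were higher than in OCI-AML2 (60.0%, against 47.2% of all tested sets) and 12 were lower (40.0%, against 43.4%). The median difference was 1.01 among members and 0.08 among all tested sets. Nothing is read from these shares and medians. ZNF486, ZNF239, ZNF43 and ZNF90 passed the TPM minimum only through OCI-AML3 and ZNF347 only through OCI-AML2, so their differences are a description. Highest in OCI-AML3 were ZNF486 (difference of 3.89), ZNF239 (3.81), ZNF43 (2.95), ZNF721 (2.83) and ZNF90 (2.82), which are also among the 8 most negative differences of the OCI-AML3 clones. Lowest were ZNF302 (-2.80), ZNF703 (-2.15), ZNF286A (-1.33), ZNF347 (-1.08) and ZNF416 (-1.04), of which all but ZNF347 rose in those clones. Both comparisons use the OCI-AML3 parental libraries, so a high or low value there moves them in opposite directions and the match is no separate evidence.

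The clones of a line also differed from each other. In OCI-AML2, 11 members were higher in clone 2 than in clone 1 (36.7%, against 29.9% of all tested sets) and 3 were lower (10.0%, against 29.0%), a split of 12 and 1 after scaling by medians of ratios. Those furthest up were ZNF286A (0.66 ± 0.09, SE, adjusted p = 3.8e-06), ZNF530 (0.54 ± 0.10, adjusted p = 1.6e-04) and ZNF724 (0.49 ± 0.08, adjusted p = 5.3e-05). ZNF286A read 9.02, 10.08 and 8.94 TPM in clone 1 and 16.92, 14.29 and 14.85 TPM in clone 2, against 9.66, 10.77 and 10.87 TPM in parental cells, so clone 2 alone stood apart. ZNF783 was lower in clone 2 (-0.52 ± 0.11, adjusted p = 6.1e-04), as were, by less, ZNF117 (-0.26, adjusted p = 0.0401) and ZNF302 (-0.21, adjusted p = 0.0492). The ZNF117 call was lost when any of clone 1 replicates 1 and 2 or clone 2 replicates 1, 2 and 3 was left out (-0.16, -0.25, -0.28, -0.25 and -0.24, adjusted p from 0.0554 to 0.218). That of ZNF302 was lost without clone 1 replicate 1 or 2 (-0.19 in both, adjusted p = 0.124 and 0.132) and without clone 2 replicate 1 or 3 (-0.21 and -0.16, adjusted p = 0.0827 and 0.175). It was also lost without any of 7 libraries outside these clones, which enter only through the shared spread (OCI-AML2 parental replicate 3, OCI-AML3 clone 1 replicate 2, OCI-AML3 clone 2 replicates 2 and 3 and the 3 OCI-AML3 parental libraries, -0.21 and adjusted p from 0.0501 to 0.0586).

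In OCI-AML3, 0 members were higher in clone 2 than in clone 1, against 3.94% of all tested sets, and 1 was lower (3.33%, against 2.88%). That member was ZNF302 (-0.34 ± 0.09, SE, adjusted p = 0.0304), with all 3 clone 2 libraries under the lowest of clone 1. The call was lost without clone 1 replicate 1 (-0.26, adjusted p = 0.137) or 2 (-0.36, adjusted p = 0.0564) and without clone 2 replicate 2 (-0.33, adjusted p = 0.101) or 3 (-0.29, adjusted p = 0.0783). Whether the clones of OCI-AML2 differed more than those of OCI-AML3 was not tested.

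The partners of the family could hardly be followed in these files. Of 36 genes listed for the KRAB silencing machinery, among them TRIM28 and SETDB1, 5 symbols occur in the table and 0 had a settled set that was tested. Genes with ZFP, ZBTB or ZSCAN symbols gave 5 settled sets. ZBTB16, the PLZF fusion partner of acute promyelocytic leukaemia, was lower in OCI-AML3 clones (-1.11, from a mean of 1.86 TPM to 0.28 and 0.38 TPM) and was not called in OCI-AML2. ZBTB38 fell by 1.39 in OCI-AML3 and rose by 0.62 in OCI-AML2. ZSCAN30 rose in both lines, by 1.18 in OCI-AML3 and 0.59 in OCI-AML2. ZFP92 fell by 1.87 in OCI-AML2, from a mean of 2.71 TPM to 0.0233 and 0 TPM, and was not called in OCI-AML3 (0.11, adjusted p = 0.382 at the highest). ZFP36L1, an RNA-binding protein whose fingers are of another type, rose by 1.81 in OCI-AML3 and 0.62 in OCI-AML2.

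What the members share beyond their symbol was looked at in sequence. Each GENCODE transcript was read in its longest open reading frame, and for each gene the frame with the most finger patterns was kept. In these frames the 30 members held a median of 11 C2H2 finger patterns, against 10 for 512 ZNF genes with a frame. The count ran from 0 in ZNF703 to 33 in ZNF462. ZNF721 had 23, ZNF43 had 19 and ZNF347 had 17, while ZNF282, ZNF783 and ZNF746 of the chromosome 7 run had 5, 4 and 3. In the 250 bases before the start, the 23 members with a RefSeq promoter held a median of 17 CG dinucleotides, against 11 for all promoters, from 1 in ZNF117 to 36 in ZNF783. ZNF302 and ZNF239, each listed at or near 0 in whole groups, had 24 and 15, counts reached by 23.3% and 42.7% of all promoters. No promoter was matched for ZNF233, ZNF462, ZNF469, ZNF572, ZNF703, ZNF721 and ZNF746.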

How the data were processed

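Per the labels' protocols, RNA of untreated cells was extracted on columns and BGI Americas made the libraries. The authors deposited TPM, per the file headers. Aligner, counter, build and annotation: not given in the sources used here. Every one of the 18 value columns was mapped to a library, with 0 unmapped. TPM keeps no depth, so no counting interval is given and the precision rests on 3 libraries per group.

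Each distinct set of 18 values entered once. The 4413 sets that reached 1 TPM in 3 or more libraries were fitted as log2(TPM + 1), pseudocount 1, with limma 3.58.1 in R 4.3.3, with 6 group means over all 18 libraries and an intensity trend. P-values are two-sided, adjusted by Benjamini-Hochberg over the 4413 sets within each contrast, with a threshold of 0.05. A gene was called in a line when its 2 clones passed with the same sign, and between lines when all 4 pairwise differences did. The log2 value quoted for a line averages its clones, and an adjusted p "of at most" is the higher of the clones' own. For CASP2, exact permutation tests (two-sided, smallest possible p 0.1 with 3 against 3 libraries) gave 0.1 and 0.1 in OCI-AML2 and 0.1 and 0.2 in OCI-AML3.

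The genes named are the 8 highest and 8 lowest changes called in each line, the 5 highest and lowest differences between lines and between parental lines, the 3 highest and lowest between clones, members under 0.1 TPM in one group and at 2 TPM or more in another, the 3 highest mean levels and those next to the TPM minimum. Other members are named where a count is spelled out. The members and lists were chosen with earlier results of these data known. Alternatives were a pseudocount of 0.1, a minimum of 5 TPM or none, scaling by medians of ratios, a replicate block, no trend, single libraries left out, the compared groups alone, either symbol rule alone and a fold minimum. Gene order and promoters came from RefSeq (GRCh38.p14, 30 of 30 symbols and 23 promoters matched) and reading frames from GENCODE transcripts. Promoters were aligned with biopython 1.88, tables made with pandas 2.3.3, exact tests with scipy 1.17.1 and figures with matplotlib 3.10.9. Grouping by KRAB or SCAN domain was left out because the pattern found the domain in 0 of 7 ZKSCAN genes.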

Additional observations from a re-analysis of the deposited data

Results flagged for a closer look

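In 22 members the change from parental cells to clones differed between the lines in all 4 pairwise limma contrasts, given here as the OCI-AML3 minus the OCI-AML2 change on the log2(TPM + 1) scale. Among all tested sets, 24.2% were called positive and 37.1% negative in the same way. The 8 positive differences were those of ZNF302 (4.03), ZNF703 (1.72), ZNF726 (1.61), ZNF572 (1.15), ZNF462 (1.13), ZNF783 (1.04), ZNF746 (0.99) and ZNF282 (0.94). The last 3 lie in the chromosome 7 run, which was lower in the OCI-AML2 clones. The 14 negative ones were those of ZNF239 (-3.79), ZNF90 (-2.80), ZNF721 (-2.52), ZNF93 (-1.83), ZNF613 (-1.63), ZNF570 (-1.58), ZNF469 (-1.50), ZNF486 (-1.45), ZNF43 (-1.37), ZNF724 (-1.12), ZNF347 (-0.85), ZNF530 (-0.83), ZNF233 (-0.67) and ZNF117 (-0.56). ZNF239, ZNF90, ZNF469, ZNF486 and ZNF43 were at or near 0 in OCI-AML2, where no fall could show. ZNF239, ZNF90 and ZNF469 passed the TPM minimum only through OCI-AML3 parental cells. ZNF726 passed it only through the OCI-AML3 clones and ZNF462 only through the clones of both lines. ZNF570 passed it only through the OCI-AML2 clones and OCI-AML3 parental cells, ZNF572 only through OCI-AML3, and ZNF233 and ZNF347 only through OCI-AML2. The differences of all these genes are a description and no support. The ZNF117 difference was lost without OCI-AML2 clone 2 replicate 1 (-0.55, adjusted p = 0.0537), OCI-AML2 parental replicate 1 (-0.50, adjusted p = 0.0774), OCI-AML3 parental replicate 2 (-0.48, adjusted p = 0.0868) or OCI-AML3 parental replicate 3 (-0.52, adjusted p = 0.0679), and by medians of ratios (-0.33, adjusted p = 0.223). With a pseudocount of 0.1, ZNF347 (-0.95, adjusted p = 0.107) and ZNF530 (-0.92, adjusted p = 0.194), whose OCI-AML3 values are under or near 1 TPM, were not called.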

How the results depend on the processing

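Of 105 called results for single members, 0 reversed under any alternative. In all, 89 kept their call under every alternative in which they were tested, other than a fold minimum. With a minimum of 5 TPM only 60 of the 105 were tested. The 105 include the calls of ZNF239, ZNF469, ZNF90 and ZNF726 that the TPM minimum fixed, and those of ZNF462 and ZNF570 that it favoured. Scaling by medians of ratios moved single sets by a median of 0.14 for the OCI-AML3 change and -0.06 for the OCI-AML2 change, while the median over all tested sets went from -0.06 to 0.0010 and from 0.06 to 0.02. CASP2 in OCI-AML3 clone 2 then passed (0.32, adjusted p = 0.00929). Counts are given as higher, then lower. Restricted to the 13 genes that repetition settles, there were 2 and 8 members called in OCI-AML3, 4 and 2 of them in OCI-AML2, 3 and 9 for the difference between lines, 10 and 3 between parental lines and 3 and 0 between OCI-AML2 clones, with 0 lower between OCI-AML3 clones. Restricted to the 18 that the rotated twin settles (ZNF570 is in both sets), 7 were lower in OCI-AML3, 5 higher in OCI-AML2, 5 and 6 for the difference and 9 higher between parental lines. With a minimum of 5 TPM fewer members were tested: 4 were higher in OCI-AML3, 1 higher in OCI-AML2, 5 and 7 for the difference, 4 lower between parental lines and 6 higher between OCI-AML2 clones. With a log2 change of at least 1, OCI-AML3 had 5 and 7, OCI-AML2 1 and 1, with 5 and 9 for the difference, 5 lower between parental lines, 0 and 0 between OCI-AML2 clones and 0 lower between OCI-AML3 clones. All tested sets then gave 530 and 710, 229 and 148, 490 and 807, 1152 lower, 176 and 334, and 1 and 6. Between OCI-AML2 clones, 1 member was lower by medians of ratios or with the compared groups alone, and 1 to 3 with single libraries left out. Between OCI-AML3 clones, 1 was higher by medians of ratios (all sets 277), 0 lower with a pseudocount of 0.1 (all sets 92 and 74) or the compared groups alone (72 and 83), and 0 to 1 lower with single libraries left out (all sets 37 to 217 and 65 to 170). For the difference between lines the compared groups are all groups, so that alternative was not run. Fits with the replicate number as a block gave 9 and 14 members in OCI-AML3. In OCI-AML2 they gave 8 and 6, where ZNF703 was lost (adjusted p = 0.0506). The numbers do not pair the samples: same-number deviations correlated at -0.343 to 0.177, and 1 of 18 libraries correlated best with its own number. Depth cannot be read from TPM, so members under 1 TPM have an unknown counting error.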
